A study of Mus musculus with 6 samples.

Results

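The genes described here are the p53 family of transcription factors (Trp53, Trp63 and Trp73) and 5 regulators or partners of p53 (Mdm2, Mdm4, Usp7, Ppm1d and Trp53bp1). They were chosen by name, and all 8 were found among the 34245 genes of the expression table. RNA-seq had been carried out on 3 peripheral T-cell lymphomas (PTCL), which were taken from lymph nodes of FVB mice (FVB/N background) that had become terminally sick. The mice were Dnmt3b+/-, that is, heterozygous for a conventional knockout allele of the DNA methyltransferase Dnmt3b that is carried in every cell. The labels call the tumors independent and say no more about how the mice were related, and the age of each mouse is not given in the sources used here. Bisulfite sequencing of the same kind of tumor and of a Dnmt3a-/- PTCL was not analysed here. Since the RNA-seq covers 1 group of 3 tumors, no test between groups was possible and all values are descriptions.

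Expression is given as FPKM, in which the fragments counted for a gene are divided by exon length and sequencing depth, so that genes of different length can be compared. The depth to which FPKM were scaled was 30726570 reads in tumor 1, 18969988 reads in tumor 2 and 20770928 reads in tumor 3. Reads per gene were recovered from FPKM, exon length and depth, and intervals given with them are exact Poisson 95% intervals, which cover counting error only.

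p53 is a transcription factor that is kept scarce in unstressed cells and accumulates after DNA damage or oncogene activation, when it switches on genes for cell cycle arrest, repair and apoptosis. Mdm2 marks p53 with ubiquitin for destruction and is itself a p53 target, which closes a negative feedback loop, while Mdm4 binds and blocks p53 alongside Mdm2. In the T lineage, loss of p53 in mice is a classic route to thymic lymphoma, whereas p63 and p73 act mainly in epithelial and in neural or ciliated tissues. Much of this control acts on the protein, which RNA levels do not show.

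The label of T-cell lymphoma was checked first. All 12 T-cell markers were above 0.2 FPKM in every tumor, and their summed levels were 1645, 1495 and 1811 FPKM in tumors 1, 2 and 3. That threshold is not particular to T-cell genes, as 36.7% of all genes, 5 of 5 B-cell markers found and 5 of 6 myeloid markers passed it. The most abundant by mean over tumors was Cd8b1, a chain of the CD8 coreceptor, although Trbc1, a T-cell receptor constant gene, was highest in tumor 2. Other cell types contributed RNA as well, and unequally. The 5 B-cell markers found of 6 listed (Ighm was not matched) summed to 56.2 FPKM in tumor 1, 13.7 FPKM in tumor 2 and 103.6 FPKM in tumor 3, with Cd79a the most abundant. The 6 myeloid markers, led by Lyz2 (by Cd68 in tumor 2), summed to 266.0 FPKM in tumor 1, 90.6 FPKM in tumor 2 and 33.3 FPKM in tumor 3. Tumor 1 thus had the most myeloid RNA and tumor 2 the least B-cell RNA. The 7 stroma and vessel markers, led by Pecam1 (by Col1a1 in tumor 2), summed to 23.2, 54.4 and 5.34 FPKM in tumors 1, 2 and 3, and the 7 pancreatic acinar genes, led by Ctrb1 (by Cela2a in tumor 3), to 78.7, 414.4 and 0.628 FPKM. In tumor 3, Col3a1 had 1 read and Ctrb1 had 0 reads. The 7 proliferation genes, led by Pcna, summed to 229.7, 158.3 and 130.4 FPKM. In such bulk samples, fewer cells of a type and less RNA per cell cannot be told apart.

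Trp53, which encodes p53 (ENSMUSG00000059552, chromosome 11 of mm10 from 69580359 to 69591873), was the most abundant member. Tumor 1 had 29.4 FPKM from 3648 reads, tumor 2 had 22.2 FPKM from 1702 reads and tumor 3 had 26.4 FPKM from 2218 reads. The average was 26.0 ± 3.60 FPKM (SD, n = 3). Tumor 1 was highest and tumor 2 lowest, with a ratio of 1.32, and the counting intervals of the 3 tumors did not overlap (28.4 to 30.3, 21.1 to 23.3 and 25.3 to 27.5 FPKM). By its mean, Trp53 stood above 96.5% of all genes.

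The remaining family members were at the limit of detection. Trp63, the master regulator of stratified epithelia (chromosome 16 from 25683763 to 25892102), had 0 reads in tumors 1 and 2 and 1 read in tumor 3. For a count of 0 the limit was set at 3 reads, or 0.0116 FPKM in tumor 1 and 0.0188 FPKM in tumor 2. The exact intervals reach slightly higher, to 0.0143 and 0.0232 FPKM. The single read of tumor 3 corresponds to 0.00574 FPKM (0.000145 to 0.0320). Trp73, which acts in neural development and multiciliated cells (chromosome 4 from 154056253 to 154140208), had 5 reads in tumor 1, or 0.0294 FPKM (0.00955 to 0.0686). It had 0 reads in tumors 2 and 3, where the limit of 3 reads is 0.0286 and 0.0261 FPKM. No difference between tumors was detectable for either gene at this depth.

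Within a tumor, the level of Trp53 was at least 2522-fold higher than that of Trp63 in tumor 1 and at least 1177-fold higher in tumor 2, with the limit of 3 reads per library. In tumor 3 the ratio of Trp53 to Trp63 was 4601, with a counting interval from 826 to 181732. Against Trp73, Trp53 was at least 776-fold higher in tumor 2 and at least 1011-fold higher in tumor 3, and the ratio in tumor 1 was 998 (428 to 3074). The p53 family was thus represented almost wholly by Trp53 RNA. Of the markers of tissues in which p63 and p73 act, some were detected and others had 0 reads. Above 0.2 FPKM in every tumor were 2 of 8 stratified epithelium genes (Cdh1 and Epcam) and 2 of 5 multiciliated genes (Foxj1 and Tppp3). Krt5, Krt14, Krt15 and Krt17, keratins of stratified epithelium, had 0 reads in every tumor, although the 8 genes of that list summed to 14.2, 2.34 and 0.866 FPKM, mostly through the adhesion gene Cdh1 in tumor 1 (13.7 FPKM). The 5 multiciliated genes, led by Foxj1 (by Tppp3 in tumor 1), summed to 1.18, 4.52 and 1.22 FPKM, with 0 reads of Mcidas and Dnah5 in every tumor.

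Trp73 overlaps Trp73os on the opposite strand. Trp73os was at 0.0134, 0.0216 and 0.0198 FPKM in tumors 1, 2 and 3, the same proportions as Krt5, which had 0 reads. Whether reads were counted by strand is not given in the sources used here, so reads of overlapping genes cannot be told apart.

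**Figure D1:**
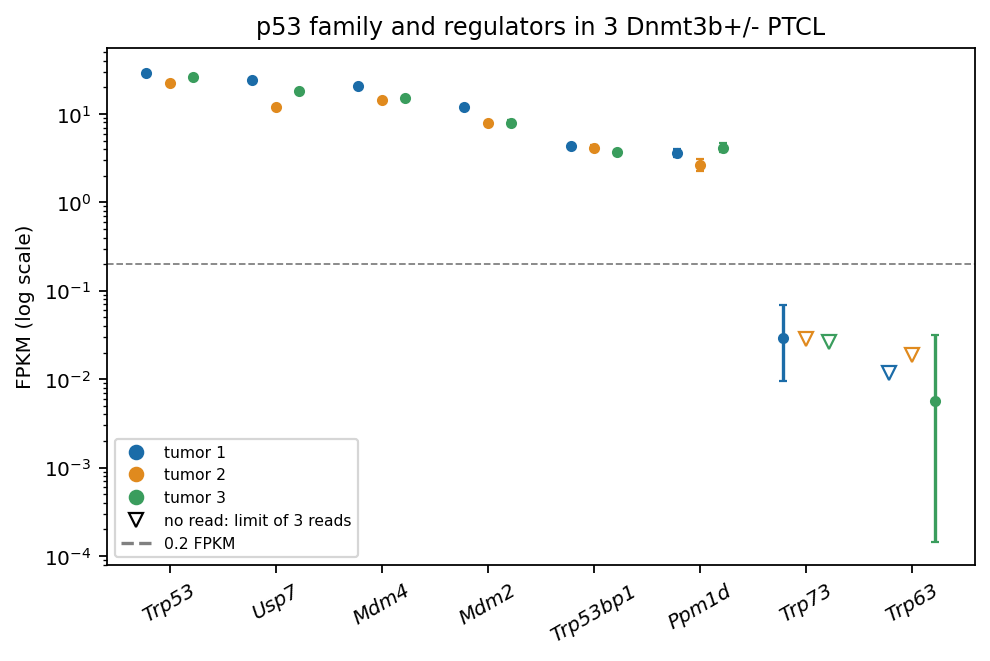
FPKM of the 8 genes in each of the 3 tumors on a log scale, with bars for exact Poisson 95% intervals and open triangles at the limit of 3 reads where a tumor had none. 6 genes lie above the dashed line at 0.2 FPKM in every tumor, and Trp73 and Trp63 lie below it.

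Mdm2, the ubiquitin ligase that targets p53 (ENSMUSG00000020184, chromosome 10 from 117688875 to 117710758), had 12.0 FPKM in tumor 1 from 1880 reads, 7.82 FPKM in tumor 2 from 754 reads and 7.90 FPKM in tumor 3 from 834 reads. The tumors averaged 9.25 ± 2.41 FPKM (SD, n = 3). Tumor 1 stood 1.54 times above tumor 2, while tumors 2 and 3 did not differ beyond counting error.

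Mdm4, the relative of Mdm2 that blocks p53 activity (ENSMUSG00000054387, chromosome 1 from 132959484 to 133030561), was at 20.9, 14.3 and 15.2 FPKM in tumors 1, 2 and 3, on 9503, 4009 and 4667 reads. With a mean of 16.8 ± 3.59 FPKM (SD, n = 3), it exceeded Mdm2 in every tumor. Its highest tumor was 1.46 times its lowest.

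Usp7, a deubiquitinase that removes ubiquitin from both Mdm2 and p53 (ENSMUSG00000022710, chromosome 16 from 8689595 to 8792308), had 24.05 FPKM in tumor 1 from 5738 reads, 11.8 FPKM in tumor 2 from 1743 reads and 17.9 FPKM in tumor 3 from 2892 reads. It varied most of the 6 detected members relative to its average of 17.9 ± 6.11 FPKM (SD, n = 3). Tumor 1 was 2.03 times tumor 2, and no counting intervals overlapped.

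Ppm1d, the phosphatase Wip1 that switches off p53 and its damage kinases (ENSMUSG00000020525, chromosome 11 from 85311244 to 85347066), had 3.65 FPKM in tumor 1, 2.67 FPKM in tumor 2 and 4.16 FPKM in tumor 3. It had the fewest reads of the detected members, 356, 161 and 274, and averaged 3.49 ± 0.754 FPKM (SD, n = 3). Tumor 2 was lowest, and tumors 1 and 3 did not differ beyond counting error.

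Trp53bp1, which encodes the double-strand break protein 53BP1 (ENSMUSG00000043909, chromosome 2 from 121193281 to 121271407), varied least. It was at 4.31, 4.15 and 3.66 FPKM in tumors 1, 2 and 3, on 1874, 1116 and 1078 reads, with a mean of 4.04 ± 0.335 FPKM (SD, n = 3). Tumor 3 was lowest, and tumors 1 and 2 did not differ beyond counting error. The 3' ends of Trp53bp1 and Tubgcp4 overlap on opposite strands over 5490 bp. Tubgcp4 was at 7.26, 4.75 and 4.69 FPKM, so the value of Trp53bp1 is uncertain to the extent that the genes share reads.

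By mean level the order was Trp53, Usp7, Mdm4, Mdm2, Trp53bp1, Ppm1d, and then Trp73 and Trp63 near 0. The ranges over tumors overlapped between Trp53 and Usp7, between Usp7 and Mdm4, and between Trp53bp1 and Ppm1d. Usp7 and Mdm2, which are not neighbours in this order, overlapped slightly, as Usp7 was at 11.83 FPKM in tumor 2 and Mdm2 at 12.04 FPKM in tumor 1. Those of Mdm4 and Mdm2, and of Mdm2 and Trp53bp1, did not overlap.

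At a threshold of 0.2 FPKM in every tumor, 6 of the 8 members were detected, against 36.7% of all genes. All 6 also passed a mean of 1 FPKM, the filter applied before folds were taken. Of these, 1 (Usp7) was at least 2 times higher in its highest than in its lowest tumor, against 34.4% of the 11191 genes that passed the same filter. That count fell to 0 without tumor 1, without tumor 2, and after scaling with median-of-ratios factors, which bring the typical gene to the same level in every tumor and gave Usp7 a ratio of 1.82. With FPKM rescaled to an equal sum in each tumor the count was 1, and the ratio of Usp7 was 2.23. The median ratio of highest to lowest tumor was 1.501 over the 6 members and 1.68 over all genes with a mean of at least 1 FPKM. A larger ratio than that of Trp53 was found for 78.6% of those genes, and a larger ratio than that of Trp53bp1 for 91.6%.

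**Figure D2:**
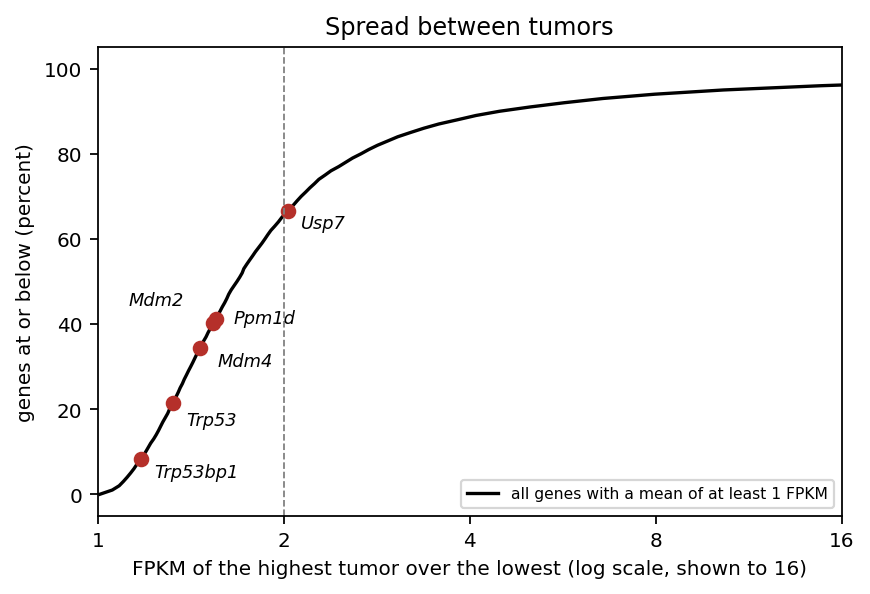
Cumulative percentage of genes with a mean of at least 1 FPKM (black line) by the ratio of the highest to the lowest tumor, on a log axis shown to a ratio of 16, with the 6 detected members as red points. Usp7 lies just past the dashed line at a ratio of 2, at 2.03, and the other members lie to its left.

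Tumor 1 was highest for 5 of the 6 members, where 50.6% of all genes with a mean of at least 1 FPKM were highest in tumor 1. Tumor 2 was lowest for 5 of the 6, against 38.3% of those genes. Among genes above 1 FPKM in every tumor, the median gene was shifted toward tumor 1 and was lowest in tumor 3, not tumor 2. It deviated from its mean over tumors by 0.12 on the log2 scale in tumor 1, by -0.04 in tumor 2 and by -0.07 in tumor 3. After median-of-ratios scaling, which removes this shift, tumor 2 was still lowest for 5 members (36.6% of genes), while tumor 1 was highest for 3 (39% of genes), namely Mdm2, Mdm4 and Usp7. Trp53 was then highest in tumor 3, at 27.8 against 27.1 scaled FPKM in tumor 1. With FPKM rescaled to an equal sum in each tumor, tumor 1 was highest for all 6 members (60.5% of genes) and tumor 2 was lowest for 3 (34.3% of genes). Directions that held under both scalings were those of Mdm2, Mdm4 and Usp7 being highest in tumor 1 and of Trp53, Usp7 and Ppm1d being lowest in tumor 2, while Trp53bp1 was lowest in tumor 3. Tumor 1 also had the highest summed myeloid and proliferation markers and tumor 2 the highest pancreatic and stromal markers, and their part in these differences was not tested.

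Ratios within a tumor do not depend on how tumors are scaled to each other. For Mdm2 to Trp53 the ratio was 0.410, 0.353 and 0.299 in tumors 1, 2 and 3 (0.354 ± 0.0555, SD, n = 3). Mdm2 was thus below Trp53 in every tumor, and relatively most abundant in tumor 1. The counting intervals of this ratio did not overlap between tumor 1 (0.388 to 0.434) and tumor 2 (0.323 to 0.384), and overlapped slightly between tumors 2 and 3 (0.276 to 0.324).

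The ratio of Mdm4 to Mdm2 varied least of the ratios between members, at 1.74, 1.83 and 1.92 in tumors 1, 2 and 3 (1.83 ± 0.0930, SD, n = 3). Mdm4 RNA therefore exceeded that of Mdm2 by a similar factor in each tumor. The ratio of Mdm4 to Trp53 was 0.712, 0.644 and 0.575. The ratio of Usp7 to Mdm2 was 2.00, 1.51 and 2.27 (1.93 ± 0.383, SD, n = 3), lowest in tumor 2. The ratio of Ppm1d to Trp53 was 0.124, 0.121 and 0.157 (0.134 ± 0.0203, SD, n = 3), highest in tumor 3. Its counting intervals overlapped, but those of tumor 1 (0.1113 to 0.1387) and tumor 3 (0.1384 to 0.1786) barely did.

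**Figure D3:**
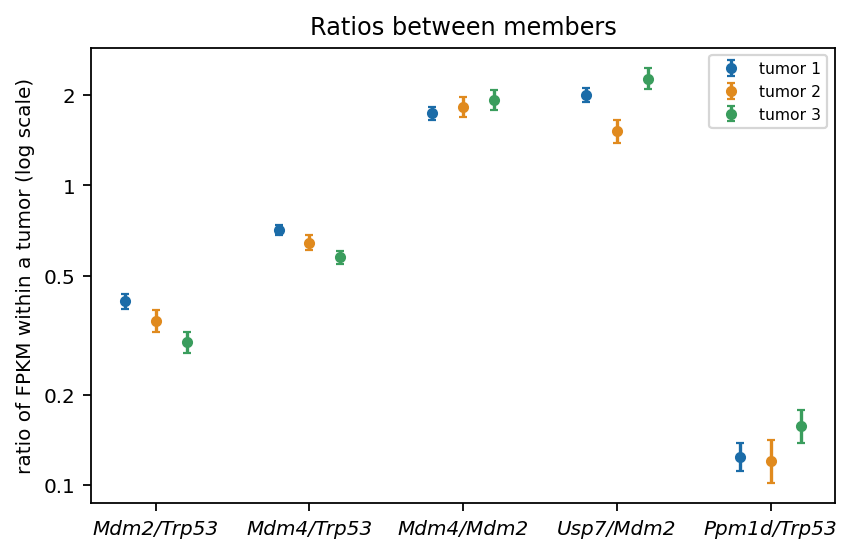
Ratio of the FPKM of a pair of members within each tumor, on a log scale, with bars for 95% counting intervals. Mdm2/Trp53 lies between 0.299 and 0.410, and Mdm4/Mdm2 between 1.74 and 1.92.

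Promoter windows from RefSeq (GRCm38.p6, 250 bp before to 50 bp after a gene's start) were matched for 7 of the 8 members, in 9 windows, with Trp63 not matched. The windows of the most abundant member, of its feedback inhibitor and of both starts of Trp73, a member with hardly any reads, are shown because they differ widely in CG dinucleotides, the sites that DNA methyltransferases act on. CG dinucleotides are in capitals. The Trp53 window is at chr11:69580109-69580408 on the + strand, that of Mdm2 at chr10:117710709-117711008 on the - strand, and those of Trp73 at chr4:154139826-154140125 (upstream start) and chr4:154097124-154097423 (downstream start) on the - strand.
Trp53: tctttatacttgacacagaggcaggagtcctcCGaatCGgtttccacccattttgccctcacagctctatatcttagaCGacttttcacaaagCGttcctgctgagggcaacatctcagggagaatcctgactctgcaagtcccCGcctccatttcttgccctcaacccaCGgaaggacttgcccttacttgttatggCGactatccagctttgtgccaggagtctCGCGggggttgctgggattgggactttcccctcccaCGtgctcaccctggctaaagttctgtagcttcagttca
Mdm2: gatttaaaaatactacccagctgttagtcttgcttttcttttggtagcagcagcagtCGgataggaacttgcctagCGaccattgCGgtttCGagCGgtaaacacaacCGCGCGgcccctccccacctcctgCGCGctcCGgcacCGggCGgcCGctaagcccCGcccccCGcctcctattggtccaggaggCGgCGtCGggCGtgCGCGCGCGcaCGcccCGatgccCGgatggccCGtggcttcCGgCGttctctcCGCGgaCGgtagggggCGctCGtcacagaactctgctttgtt
Trp73 upstream: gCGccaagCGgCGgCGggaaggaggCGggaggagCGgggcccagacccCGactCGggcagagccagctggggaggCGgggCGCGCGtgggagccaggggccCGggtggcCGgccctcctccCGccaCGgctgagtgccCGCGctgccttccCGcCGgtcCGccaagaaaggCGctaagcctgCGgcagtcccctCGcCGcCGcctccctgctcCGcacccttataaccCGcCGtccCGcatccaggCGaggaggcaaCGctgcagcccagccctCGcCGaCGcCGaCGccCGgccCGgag
Trp73 downstream: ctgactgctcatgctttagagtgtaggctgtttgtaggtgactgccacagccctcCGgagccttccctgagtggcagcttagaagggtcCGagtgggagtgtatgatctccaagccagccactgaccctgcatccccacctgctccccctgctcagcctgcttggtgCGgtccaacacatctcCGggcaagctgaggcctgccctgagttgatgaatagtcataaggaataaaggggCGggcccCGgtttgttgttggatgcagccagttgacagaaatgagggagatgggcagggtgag

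The Trp53 window holds 10 CG dinucleotides, that of Mdm2 holds 35, and those of Trp73 hold 39 at the upstream and 6 at the downstream start. The median over all 32851 windows was 7, with quartiles of 3 and 20. Usp7 had 63, more than 99.97% of windows, Ppm1d had 30, Trp53bp1 had 20, and the windows of Mdm4 had 4 and 9. The upstream window of Trp73, a gene with 5, 0 and 0 reads, thus held more CG dinucleotides than that of Trp53. A relation between CG dinucleotides and RNA level was not tested. Methylation of these windows was not analysed here.

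**Figure D4:**
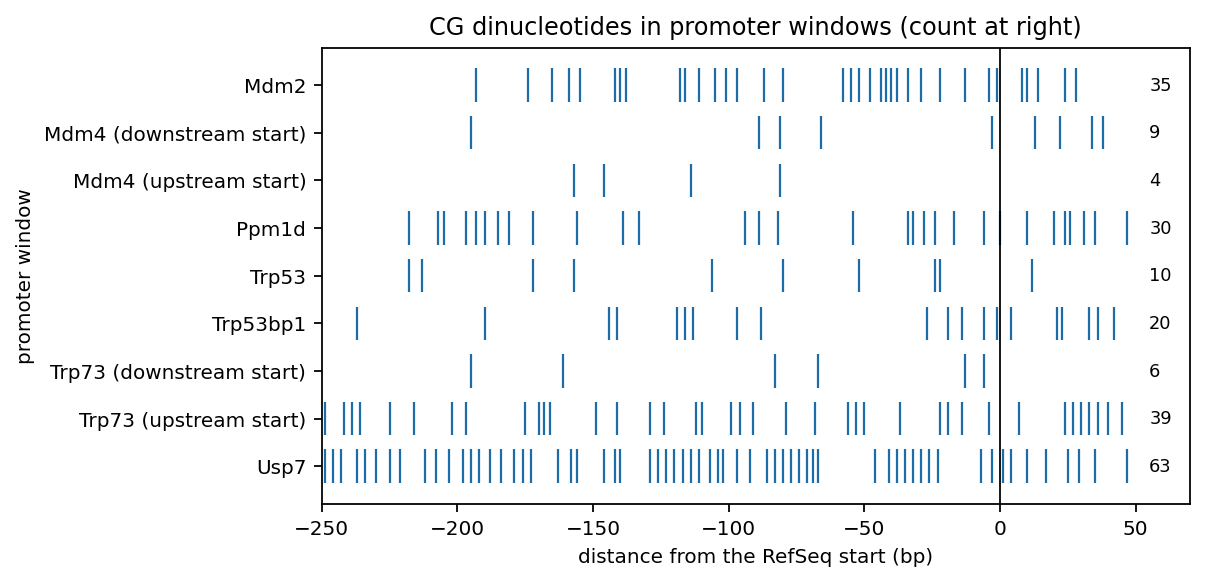
Positions of CG dinucleotides (vertical lines) in the 9 promoter windows by distance from the RefSeq start in bp, with the count of each window at the right. Usp7 has 63 and the upstream window of Mdm4 has 4.

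4 motifs were searched on both strands of the windows. The E box CACGTG, found in 7.15% of all windows, was present only in that of Trp53 among the members, 10 bp past the start, where it contains the last CG in capitals. CCAAT (37.4% of windows) was found for Trp53 (at -8 bp from the start), Mdm2 (-72), Ppm1d (-109) and Usp7 (-169). TATAAA (13.6% of windows) was found for Trp53 alone, on the opposite strand at -248 bp, the far edge of the window. The p53 consensus element, with exact matches to both of its parts and a spacer of up to 13 bases, was found in none of the 9 windows and in 0.0731% of all windows. Sequence outside the windows, including introns, and inexact matches were not searched, so p53 sites of Mdm2 or other members there would be missed.

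The gene that neighbours Trp53 head to head, Wrap53, ends 103 bp from it without overlap in the annotation. Wrap53 was at 5.57, 4.70 and 5.32 FPKM in tumors 1, 2 and 3, or 0.190, 0.212 and 0.202 of the level of Trp53. The genes with the most similar distribution over the 3 tumors to Trp53 were Pank2, Ppia and Hsd17b12, at Euclidean distances of 0.00210, 0.00210 and 0.00284 between shares of summed FPKM, and 146 of 6156 genes with a mean of at least 5 FPKM lay within 0.02. For Mdm2 they were Phyh, Tra2a and Tug1, at distances of 0.00100, 0.00175 and 0.00185, with 100 genes within 0.02. A distribution over 3 tumors is therefore shared by many genes.

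Around the members, 10 lists of pathway genes were examined. Of 79 listed genes, 78 were found (Shld3 was not matched), and 73 were above 0.2 FPKM in every tumor, beside 36.7% of all genes. Of the 71 with a mean of at least 1 FPKM, 25 were at least 2 times higher in the highest than in the lowest tumor, beside 34.4% of all such genes, and their median ratio was 1.77 beside 1.68. That count was 13 without tumor 1, 13 without tumor 2 and 13 without tumor 3. The share of all genes at this ratio was taken in FPKM only. The 2-fold counts after other scalings, for lists and members, therefore have no such share beside them. Their rise or fall was not compared with that of all genes.

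Damage kinases, which phosphorylate p53 or its regulators, were all detected, and 1 of 6 (Hipk2) reached a ratio of 2, or 2 after rescaling to an equal sum (with Chek1). Atm, which responds to double-strand breaks, was at 10.1, 8.56 and 8.70 FPKM in tumors 1, 2 and 3. Prkdc, the DNA-dependent protein kinase, was at 5.005, 3.73 and 5.07 FPKM. Hipk2 varied most, at 4.99, 4.02 and 2.04 FPKM, and was lowest in tumor 3.

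Among 8 inhibitors and partners of Mdm2, 5 reached a ratio of 2 in FPKM, beside 34.4% of all genes with a mean of at least 1 FPKM. These were Cdkn2a, Daxx and the ribosomal protein genes Rpl5, Rpl11 and Rpl23. The count was 6 after rescaling to an equal sum, and the median ratio was 2.24 in FPKM. Cdkn2a, whose Arf product sequesters Mdm2, was at 7.22 FPKM in tumor 1, 0.0900 FPKM in tumor 2 and 9.08 FPKM in tumor 3, on 260, 2 and 221 reads. Tumor 2 thus had almost no Cdkn2a RNA. Tumor 1 was 80.3 times above it, with a counting interval from 22.2 to 663, and tumor 3 was 100.9 times above it (27.9 to 833). FPKM of Cdkn2a do not separate the Arf from the Ink4a transcript. By mean over tumors, ribosomal proteins that bind Mdm2 were the most abundant of the list. Rpl23 was at 538.9, 498.7 and 1099 FPKM and Rpl11 at 114.3, 312.5 and 501.6 FPKM, both highest in tumor 3.

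Of 6 other ubiquitin ligases of p53, all were detected and 1 (Trim24) reached a ratio of 2, or 2 after rescaling to an equal sum (with Rfwd2). Huwe1 was at 17.6, 28.2 and 28.8 FPKM, Stub1 at 20.2, 22.9 and 20.9 FPKM, and Trim24, the most variable, at 3.54, 2.09 and 1.51 FPKM in tumors 1, 2 and 3. Of 5 other deubiquitinases of p53 or Mdm2, none of the 4 with a mean of at least 1 FPKM reached that ratio, and 1 (Usp15) did after rescaling to an equal sum. Otub1 was at 18.0, 25.5 and 21.5 FPKM, Usp42 at 4.40, 4.30 and 3.23 FPKM, and Usp15 at 4.62, 2.49 and 3.23 FPKM. Usp2 was low, at 0.142, 0.0656 and 0.0999 FPKM. Usp7 was above Otub1 in tumor 1 and below it in tumors 2 and 3, and it was above the other 4 enzymes in every tumor.

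All 10 enzymes that acetylate, deacetylate or methylate p53 were detected. In FPKM, 1 of them reached a ratio of 2, the deacetylase Hdac1, at 26.5, 12.4 and 13.9 FPKM, highest in tumor 1, and its ratio of 2.13 was 1.91 after median-of-ratios scaling. After rescaling to an equal sum 2 reached it, Hdac1 at 2.34 and the methyltransferase Kmt5a at 2.35. Prmt5, an arginine methyltransferase, was at 10.6, 11.8 and 9.99 FPKM. In the ASPP family, cofactors that steer p53 to its targets, Ppp1r13b was at 6.51, 3.54 and 7.27 FPKM, lowest in tumor 2, and Trp53bp2 at 2.95, 3.94 and 3.36 FPKM.

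Of 4 genes that control Trp53 transcription or RNA, 2 reached a ratio of 2. Jdp2, an AP-1 repressor, was at 1.14, 4.22 and 0.247 FPKM on 75, 172 and 11 reads, highest in tumor 2. Rpl26, a ribosomal protein that binds Trp53 RNA, was at 311.5, 399.5 and 706.9 FPKM, highest in tumor 3, and its ratio of 2.27 was 1.91 after rescaling to an equal sum. Of the 4 regulators of p63 and p73, 3 had a mean of at least 1 FPKM (all but Yap1). Of these 3, 2 reached a ratio of 2 (Abl1 and Fbxo45), or 1 after median-of-ratios scaling (Abl1). Abl1, a kinase that activates p73, was at 33.8, 5.68 and 3.92 FPKM on 12049, 1249 and 945 reads. Tumor 1 was 8.62 times tumor 3 for Abl1. Itch, a ubiquitin ligase for both proteins, was at 7.16, 6.12 and 6.16 FPKM. Yap1, a coactivator of p73, was at 0.109 and 0.154 FPKM in tumors 1 and 2 and had 0 reads in tumor 3.

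Of 10 partners of 53BP1 that were found, all were detected and 2 reached a ratio of 2 (Usp28 and Brca1), with 1 after median-of-ratios scaling (Usp28) and 5 after rescaling to an equal sum (with Rif1, Paxip1 and Dclre1c). Rif1, its main effector, was at 8.17, 4.22 and 5.20 FPKM, and Rnf8, a ligase that recruits it, at 4.004, 6.15 and 5.45 FPKM. Usp28, a deubiquitinase that binds 53BP1, was the most variable, at 7.50, 1.83 and 2.11 FPKM, highest in tumor 1.

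Of 22 p53 target genes, 20 were above 0.2 FPKM in every tumor. Of the 18 with a mean of at least 1 FPKM, 10 reached a ratio of 2, against 34.4% of all such genes in FPKM. The count was 12 after median-of-ratios scaling and 10 after rescaling to an equal sum, where the share of all such genes was not taken. Tumor 3 was highest for 12 of the 18, against 15.7% of those genes, and tumor 2 lowest for 12, against 38.3%. After median-of-ratios scaling these counts were 12 (23.7% of genes) and 11 (36.6%), and after rescaling to an equal sum 9 (8.75%) and 13 (34.3%). Btg2 was at 38.7, 41.0 and 56.8 FPKM, Bax at 29.9, 29.7 and 56.2 FPKM, and Phlda3 at 1.80, 1.28 and 6.67 FPKM. Eda2r (0.0552, 0.0179 and 0.311 FPKM) and Perp (0.217, 0.108 and 0.173 FPKM) were low. In FPKM, 3 of the 18 were highest in tumor 1 and 3 in tumor 2. Of the members, Mdm2, also a target, did not share the order of the 12, being highest in tumor 1. Ppm1d did share it, being highest in tumor 3 and lowest in tumor 2, but after rescaling to an equal sum it was highest in tumor 1. B-cell markers were likewise highest in tumor 3 and lowest in tumor 2, and their part in these values was not tested.

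**Figure D5:**
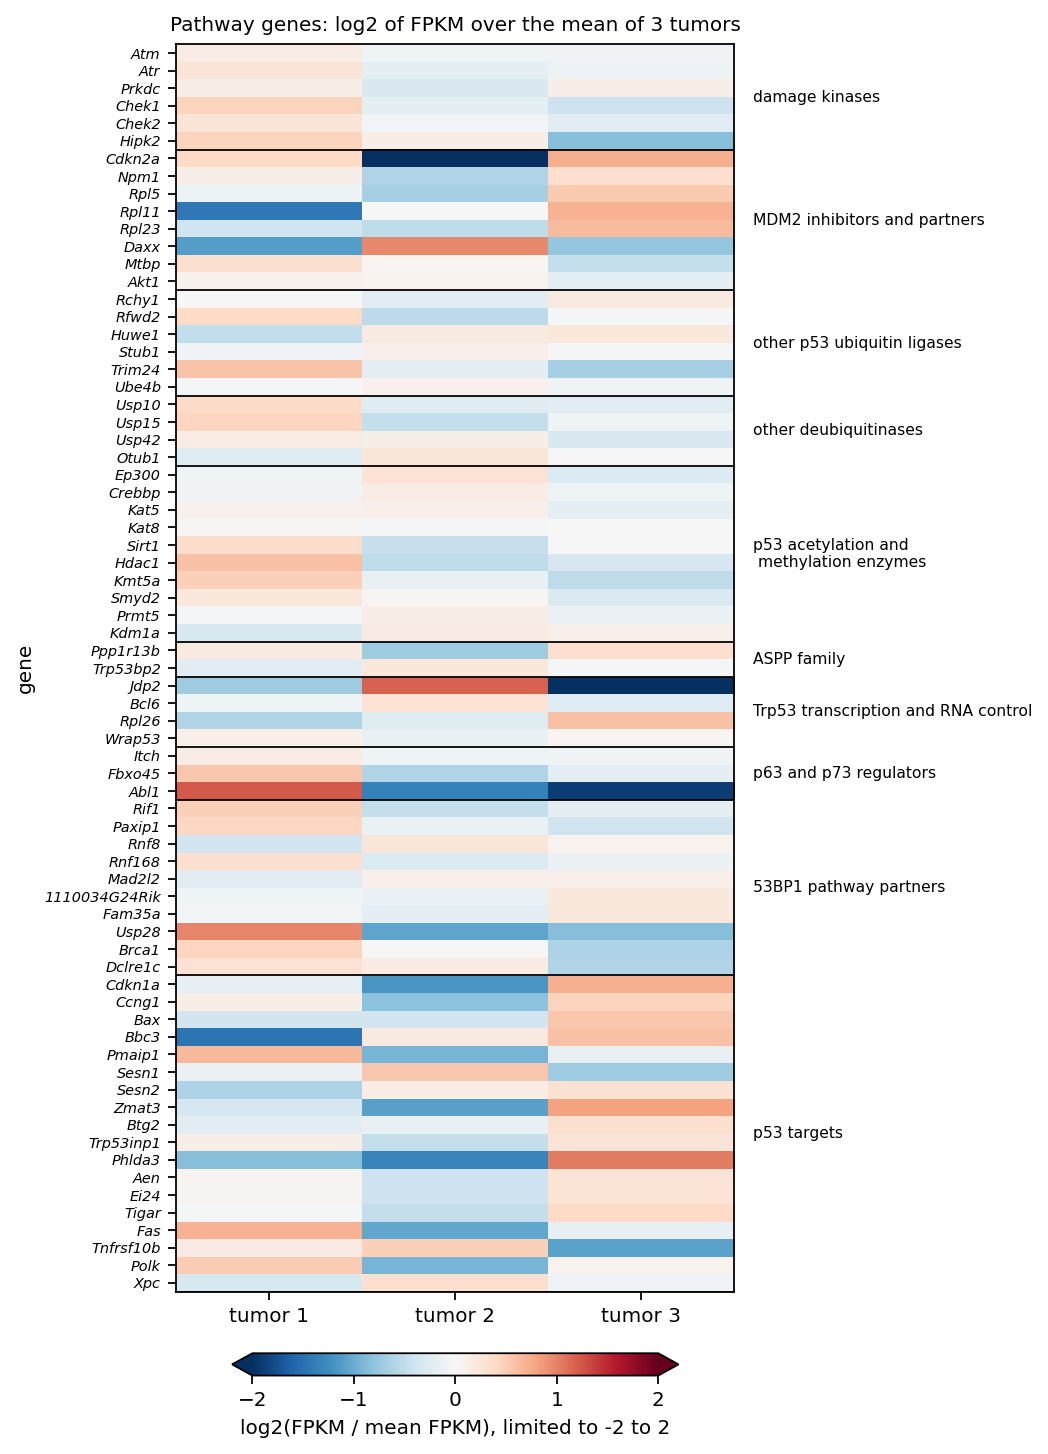
log2 of each tumor's FPKM over the mean of 3 tumors for the 71 pathway genes with a mean of at least 1 FPKM, grouped by list, with red above and blue below the mean. Cdkn2a in tumor 2, Jdp2 in tumor 3 and Abl1 in tumor 3 are the darkest blue cells.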

How the data were processed

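RNA-seq values were deposited by the authors as FPKM. Per the methods, paired-end reads of 150 bp were aligned to mm10 with STAR, filtered at a mapping quality of 50 and quantified with SeqMonk. No sample was tested against another. Members and lists were chosen with earlier results of these data known. Genes named are the 8 members, and in each pathway list the 2 highest, the most variable above a mean of 1 FPKM and those at or below 0.2 FPKM in any tumor, and the 3 nearest to Trp53 and Mdm2. Marker genes named beside the list sums, genes named only for a list's 2-fold count, Mdm4/Trp53, Wrap53/Trp53, the motifs, the promoter windows shown and the tumor orders were added after values were seen. A gene without a read holds 0.9 read, which gave the depth. Exon lengths of GENCODE M21 gave whole reads (tolerance 0.01) in all tumors for 92.0% of genes, and reads are given only there. Repeated symbols were reduced to the highest mean. Alternatives were other scalings, thresholds, pseudocounts, repeated symbols summed and tumors left out. Steps were tested on simulated data. The software was SciPy 1.17.1, NumPy 2.4.6 and pandas 2.3.3 under Python 3.11, with figures from matplotlib 3.10.9.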

Additional observations from a re-analysis of the deposited data

How the results depend on the processing

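Of 82 alternative values for 16 results, 63 stayed within 1 SD or, for counts, within 1.5 times. The 63 include means of FPKM and of ratios without 1 tumor, which with 3 tumors cannot leave 1 SD. Rescaling FPKM to a sum of 1000000 moved the means by its construction, to 126.9 for Trp53, 45.6 for Mdm2, 82.5 for Mdm4, 88.2 for Usp7, 17.0 for Ppm1d and 19.8 for Trp53bp1. A pseudocount of 1 FPKM moved the ratio of Ppm1d to Trp53 to 0.167, as it adds more to the lower gene. The count of members at least 2-fold between tumors was 3 at a threshold of 1.5, 2 with no filter on low values (adding Trp73, which rests on 5 reads), 0 with a pseudocount of 1 FPKM, 0 with median-of-ratios factors, and 0 to 1 with a tumor left out. For pathway genes it was 45 at a threshold of 1.5 and 13 with each tumor left out. Fewer tumors can only lower such a count. Members lowest in tumor 2 numbered 3 after rescaling, and members highest in tumor 1 numbered 3 with median-of-ratios factors. These orders and their scalings, tumors left out for Usp7/Mdm2 and summed symbols for fold counts were chosen after seeing the data. The means of the 6 detected members without 1 tumor stayed within 1 SD. No paired analysis was possible because the results come from no test. Depth limits Trp63 and Trp73, with 0 to 5 reads.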

Other observations

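The genes next to Cdkn2a on chromosome 4 were looked at after its values were seen. Mtap, at lower coordinates (89137122 to 89181081), was at 14.1, 15.8 and 16.3 FPKM in tumors 1, 2 and 3. Cdkn2b, at higher coordinates (89306289 to 89311032), was at 0.888, 0.416 and 1.52 FPKM. Dmrta1, farther along (89679436 to 89694772), was at 0.0388 FPKM in tumor 1 on 5 reads, and at 6.15 and 7.71 FPKM in tumors 2 and 3 on 489 and 672 reads. The low value of tumor 2 was not shared by Mtap or Dmrta1, Cdkn2b was lowest in tumor 2 as well, and tumor 1 was low for Dmrta1 alone of these 4 genes. Daxx, a partner of Mdm2 outside the naming rule, was also picked after its values were seen. It was at 13.9, 58.3 and 17.5 FPKM, highest in tumor 2.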
